A study of Mus musculus with 6 samples.

Results

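Semaphorins, slits and netrins are extracellular cues that steer growing axons and migrating cells, and plexins, neuropilins, Robo proteins, Unc5 proteins and Dcc are the receptors that read them. Their genes were selected by symbol in the platform annotation, which gave 54 of the 23473 probes on the array. A probe was kept where the authors' table held a value on at least 3 of the 6 arrays, and 50 probes of 46 genes met that rule. The measurements come from cortical astrocytes of newborn (postnatal day 0) C57BL/6J mice with floxed Chd7 alleles (Chd7flox/flox), the gene of an ATP-dependent chromatin remodeller. Cre cultures (3 arrays) received a lentivirus with the Cre recombinase, which removes DNA between loxP sites, and control cultures (3 arrays) received a control lentivirus. All cultures, controls included, carried the floxed alleles, were kept in medium with B-27, EGF, FGF2 and 10% serum and were harvested on day 3 of infection. No label names the promoter that drives Cre. The recombinase was present only in the Cre cultures, so its own effects and those of losing Chd7 cannot be told apart. Each RNA was labelled with Cy5 and read on its own 1-colour array.

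Class 3 semaphorins are secreted, and most act on complexes of a neuropilin with an A plexin, while Sema3e is a ligand of Plxnd1. Classes 4 to 6 are membrane proteins that bind plexins directly, and Sema7a is tethered to the membrane by a lipid anchor. Slits repel axons through Robo receptors at the midline of the nervous system. Netrins attract axons through Dcc and repel them through Unc5 receptors, while netrin-Gs are membrane-anchored relatives that bind other partners. Astrocytes and the meninges that cover the cortex are known sources of several of these cues.

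The series was checked first on Chd7. Its brighter probe had authors' values of 8, 7 and 8 in Cre replicates 1, 2 and 3, and 42, 89 and 46 in control replicates 1, 2 and 3. Its log2 difference was -1.13 (SE 0.16, limma adjusted p = 0.405 over all probes). A second, dimmer Chd7 probe had 9, 6 and 11 in Cre and 11, 13 and 14 in control cultures, with groups that overlapped on the log2 scale and a difference of -0.11 (SE 0.06, limma adjusted p = 0.997). Between 82.8 and 87.0% of probes lay above background on the Cre arrays and between 87.4 and 90.7% on the control arrays, with the lowest share (82.8%) on Cre replicate 2. Astrocyte markers were above background on all 6 arrays for 12 of 12 genes and had a positive log2 difference for 12 of 12, although Gja1, Slc1a2 and S100b averaged less in Cre than in control cultures in the authors' values. The list had a summed authors' value of 6697 to 8517 in Cre and 5031 to 8839 in control cultures. Microglia markers had a negative log2 difference for 8 of 11 genes, with sums of 144 to 206 in Cre and 272 to 330 in control cultures. The other lists, as summed authors' values, had 1161 to 1595 in Cre and 1420 to 1746 in control cultures for neurons, 1694 to 2518 and 1830 to 3355 for the oligodendrocyte lineage, and 72 to 117 and 85 to 128 for endothelial and mural cells. By gene, 6 of 12 neuron, 7 of 11 oligodendrocyte-lineage and 4 of 9 endothelial and mural markers had a negative log2 difference. At an unadjusted limma p under 0.05, 5 of 12 astrocyte markers were higher and 0 lower in Cre cultures. Of the 11 microglia markers, 4 were lower and 0 higher. Of the 12 neuron markers, 2 were higher (Nefm and Nefl) and 1 lower (Stmn2). None of the oligodendrocyte-lineage or endothelial and mural markers reached it, and 5.61% of all probes did. Whether these cells contributed to the differences below was not tested, and in bulk RNA fewer cells of a type and less RNA per cell cannot be told apart.

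Upstream DNA is shown for 3 members on which the results turn: Slit2, which had the lowest Cre minus control difference, and Sema3a and Sema3c, the class 3 semaphorins with the widest range over replicate numbers. Of the 46 genes, 38 had an entry in RefSeq's promoter table (GRCm38.p6). Each sequence is the 150 bases before the annotated start, on the plus strand. Capitals mark a GC box (GGGCGG) or a TATA box (TATAAA), both searched on both strands, with no overlap between them here.
Sema3a, chr5:13396634-13396783: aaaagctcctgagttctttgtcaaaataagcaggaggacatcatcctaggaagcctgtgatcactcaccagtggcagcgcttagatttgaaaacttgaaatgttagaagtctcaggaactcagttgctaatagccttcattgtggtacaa
Sema3c, chr5:17574666-17574815: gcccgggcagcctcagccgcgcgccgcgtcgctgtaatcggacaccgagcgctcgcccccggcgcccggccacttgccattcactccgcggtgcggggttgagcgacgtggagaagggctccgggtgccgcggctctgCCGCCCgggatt
Slit2, chr5:47983005-47983154: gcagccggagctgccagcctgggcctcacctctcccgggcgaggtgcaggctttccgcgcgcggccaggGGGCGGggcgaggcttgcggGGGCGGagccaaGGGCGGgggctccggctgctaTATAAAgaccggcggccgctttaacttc
The Sema3a window held 1 CpG and neither motif, at 42% G and C. The Sema3c window held 24 CpGs and 1 GC box, and the Slit2 window held 16 CpGs, 3 GC boxes and 1 TATA box. Among the 32851 windows of this length in the table, 28.6% held a GC box, 7.57% held a TATA box, and the median window had 4 CpGs. A match is a description of these letters only.

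The question put to the members was whether guidance genes differ between Cre and control cultures. Of the 50 kept probes, 49 were in the fit, and 0 of them reached a limma adjusted p of 0.05 over all 20540 probes (smallest 0.785), as did 0% of all probes. At an unadjusted p under 0.05 there were 3 member probes (6.12%), 2 of them higher (Sema4d and Sema6d) and 1 lower (Unc5a) in Cre cultures, against 5.61% of all probes (2.77% higher and 2.85% lower), so that the members' share lay near the background. Arrays of the groups did not overlap for 4 member probes (8.16%), 3 higher and 1 lower in Cre cultures, against 10.5% of all probes (5.22% higher and 5.31% lower). The median difference over the members was 0.008 on the log2 scale, with 27 probes above and 22 below 0, and the median of all probes was -0.001. Single members ranged from -0.17 (Slit2) to 0.25 (a Plxna1 probe). With the replicate number as a block, 4 member probes reached an unadjusted p under 0.05 against 9.34% of all probes (1918, compared with 1153 without the block), and 0 passed the adjusted threshold. These 4 were Sema4d, Slit2, Ntn4 and Plxna1 (M400013283), so that of the 3 named without the block only Sema4d was among them.

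On the offset log2 scale and with the correction by blank spots, the intervals bound what was missed. For 44 of the 49 probes (89.8%) the 95% interval of the difference lay within 1.5-fold in either direction, against 90.1% of all probes, and for 48 it lay within 2-fold. Sema3a was the exception to the 2-fold bound (-1.05 to 0.76), and the other probes with an interval beyond 1.5-fold were Sema3c, Sema7a, Unc5b and 1 of the Plxnb2 probes. These bounds come from the fit without the replicate number. With it as a block the SE was 0.08 in place of 0.36 for Sema3a, 0.10 in place of 0.23 for Sema3c and 0.11 in place of 0.25 for Sema7a. All of these values hold on the offset log2 scale, which compresses differences of dim probes. Of the 49 probes, 33 averaged under 7 log2 units. With plain subtraction of the blank mean, for example, Unc5a moved from -0.081 to -0.627 and Robo3 (M400011115) from 0.042 to 1.057. The bounds therefore do not limit how far the expression of dim genes differs. For brighter probes they hold under this background correction only. With the local background column, for example, Plxna1 (M400013283) stood at 0.649, outside its interval (-0.057 to 0.553). Nrp1 stood at -0.473, outside its interval as well (-0.396 to 0.565).

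**Figure D1:**
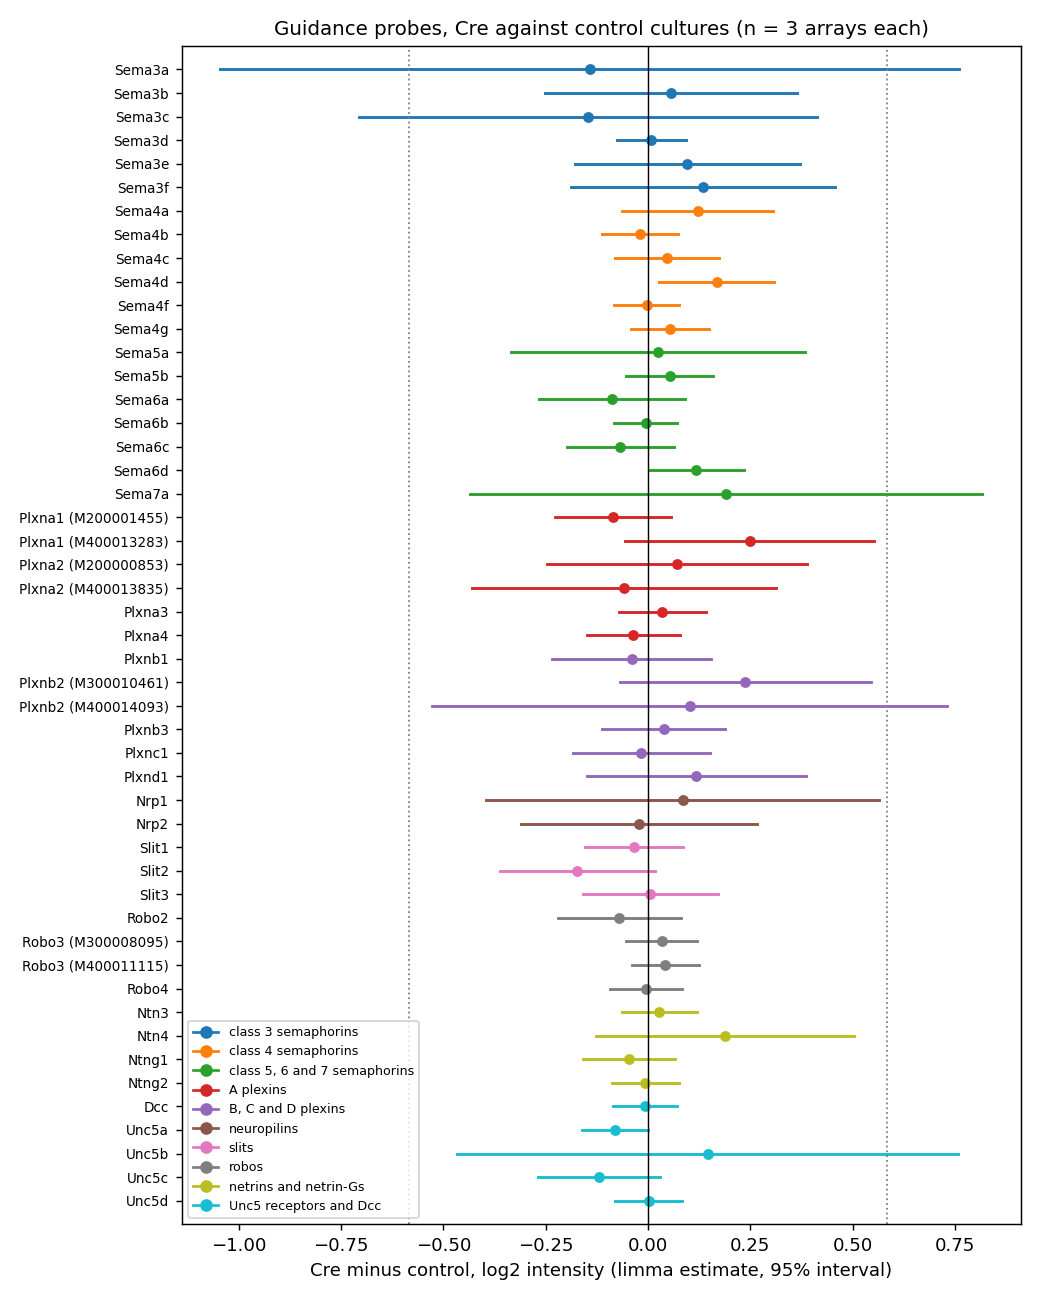
Cre minus control difference on the log2 scale (x axis) with its 95% interval from limma for the 49 guidance probes in the fit, listed by gene and coloured by role; 3 arrays per group. Dotted lines mark 1.5-fold in either direction. The points lie between -0.17 and 0.25, and the widest intervals belong to Sema3a, Sema7a, Plxnb2 (M400014093), Unc5b and Sema3c.

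Among class 3 semaphorins, 4 probes lay above and 2 below 0, and 0 passed. Sema3c, a cue for migrating neural crest cells, had the highest signal of the class, with 8.72, 7.90 and 8.46 log2 units in Cre replicates 1, 2 and 3 and 8.65, 8.28 and 8.59 in control replicates 1, 2 and 3. Replicate 2 was the lowest array of both groups, and the groups overlapped. The difference was -0.15 (SE 0.23, limma adjusted p = 0.999), and its sign turned without Cre replicate 2 (0.08). Sema3f, a repellent that acts through Nrp2, had the smallest unadjusted p of the class, at 7.29, 7.23 and 7.07 in Cre and 7.22, 7.18 and 6.79 in control cultures. Control replicate 3 was the lowest array. The difference was 0.13 (SE 0.13, limma adjusted p = 0.999), and without that array it was 0 at 3 decimals. Sema3b averaged 7.39 in Cre and 7.33 in control cultures. Sema3e, a ligand of Plxnd1, averaged 6.98 in Cre and 6.89 in control cultures. Sema3d lay near background, with authors' values of 3, 2 and 1 in Cre and 2, 3 and 2 in control cultures. Sema3g met the rule on exactly 3 arrays, with 1 in Cre replicate 2 and 2 and 4 in control replicates 1 and 2. It was above background on 0 Cre arrays and 1 control array and was therefore not in the fit.

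Sema3a, which collapses growth cones of sensory and cortical axons, varied with the replicate number; it is named after its values were seen. Its authors' values were 66, 18 and 41 in Cre replicates 1, 2 and 3, and 78, 21 and 57 in control replicates 1, 2 and 3. Both groups shared one order of the replicate numbers, with replicate 1 highest and replicate 2 lowest. On the log2 scale replicate 2 lay -1.03 from replicate 1 over both groups, whereas Cre minus control was -0.14 (SE 0.36, limma adjusted p = 0.999). Taking out the replicate number as a block lowered that SE to 0.08 and left the adjusted p at 0.687.

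Class 4 semaphorins held the member with the smallest unadjusted p of all. Sema4d, a ligand of Plxnb1 also known from lymphocytes, had 7.40, 7.53 and 7.48 log2 units in Cre and 7.35, 7.33 and 7.22 in control replicates 1, 2 and 3. Every Cre array lay above every control array. The difference was 0.17 (SE 0.06, interval 0.03 to 0.31), and it did not pass (limma adjusted p = 0.785). In the authors' values the groups overlapped, at 71, 69 and 75 in Cre and 66, 75 and 61 in control cultures. A second Sema4d probe had an authors' value on 2 arrays only (1 and 1) and was not kept. Sema4a, a membrane semaphorin of immune and retinal cells, had 8.27, 8.32 and 8.22 in Cre and 8.27, 8.01 and 8.18 in control cultures. Control replicate 2 was the lowest, and the difference was 0.12 (SE 0.07, limma adjusted p = 0.999). The 4 remaining class 4 probes, Sema4b, Sema4c, Sema4f and Sema4g, read 3 to 8 in the authors' table on every array, with differences of -0.02 to 0.05.

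Sema5a, a class 5 protein with thrombospondin repeats, had 7.11, 7.24 and 7.16 log2 units in Cre and 7.37, 7.24 and 6.83 in control replicates 1, 2 and 3. The Cre arrays lay inside the range of the controls, with a difference of 0.02 (SE 0.14, limma adjusted p = 0.999). Sema6d, a class 6 ligand of Plxna1, had 6.29, 6.25 and 6.39 in Cre and 6.21, 6.20 and 6.16 in control cultures. Its groups did not overlap on this scale, but they did in the authors' values, at 17, 14 and 19 in Cre and 15, 15 and 13 in control cultures. The difference of 0.12 (SE 0.05) did not pass (limma adjusted p = 0.885). Sema6a, a ligand of Plxna2 and Plxna4, averaged 6.72 in Cre and 6.80 in control cultures. Sema6c averaged 6.40 in Cre and 6.47 in control cultures, and Sema5b and Sema6b read 3 to 5 in the authors' table on every array. Sema7a, which also binds integrins, had authors' values of 37, 6 and 12 in Cre and 19, 6 and 11 in control replicates 1, 2 and 3. Replicate 1 was the highest array of both groups and replicate 2 the lowest. The log2 difference was 0.19 (SE 0.25, limma adjusted p = 0.999), and by same-numbered pair it was 0.48, 0.04 and 0.06.

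Plexins were measured by 12 probes of 9 genes, 7 above and 5 below 0, and 0 passed. Plxna1, a receptor subunit for class 3 and class 6 semaphorins, had 2 probes that disagreed. Probe M400013283 had 8.15, 8.17 and 8.03 log2 units in Cre and 7.96, 8.04 and 7.60 in control replicates 1, 2 and 3. Control replicate 3 was low, while Cre replicate 3 overlapped control replicate 2. The difference was 0.25 (SE 0.12, limma adjusted p = 0.964), positive in all 3 pairs on this scale, while the authors' values of pair 2 (120 in Cre and 147 in control) ran the other way. Without control replicate 3 the difference of this probe was 0.12. It was 0.122 in the authors' values, 0.313 with plain subtraction of the blank mean and 0.649 with the local background column. Probe M200001455 was negative in all 3 pairs, with a difference of -0.09 (SE 0.06, limma adjusted p = 0.999). No source used here says which transcripts each Plxna1 probe matches. The Plxna2 probes also differed in sign, at 0.07 (SE 0.13) for M200000853 and -0.06 (SE 0.15) for M400013835. Plxna3 averaged 5.99 in Cre and 5.96 in control cultures, and Plxna4 averaged 6.32 in Cre and 6.35 in control cultures.

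Plxnb2, a receptor for class 4 semaphorins, was measured by a pair of probes. Probe M400014093 had 9.54, 9.25 and 9.31 log2 units in Cre and 9.15, 9.81 and 8.84 in control replicates 1, 2 and 3. The controls spread over a wider range than the Cre arrays and enclosed all 3 of them, with a difference of 0.10 (SE 0.25, limma adjusted p = 0.999). Probe M300010461 had 8.51, 8.22 and 8.40 in Cre and 8.14, 8.33 and 7.94 in control cultures. Its difference was 0.24 (SE 0.12, limma adjusted p = 0.979), positive in pairs 1 and 3 and negative in pair 2. Plxnb1, the receptor of Sema4d, averaged 7.30 in Cre and 7.34 in control cultures, and Plxnb3 averaged 6.53 in Cre and 6.49 in control cultures. Plxnd1, the receptor of Sema3e, had 7.29, 7.10 and 7.16 in Cre and 7.17, 7.18 and 6.85 in control cultures, a difference of 0.12 (SE 0.11, limma adjusted p = 0.999). Plxnc1, the receptor of Sema7a, read 5, 7 and 7 in Cre and 4, 10 and 9 in control cultures in the authors' table.

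Both neuropilins were measured well above background. Nrp1, the binding subunit for Sema3a, had 8.04, 7.40 and 7.52 log2 units in Cre and 7.74, 7.61 and 7.36 in control replicates 1, 2 and 3. Replicate 1 was the highest array of both groups, and the difference was 0.08 (SE 0.19, limma adjusted p = 0.999). Nrp2, the binding subunit for Sema3f, had 7.09, 6.79 and 6.84 in Cre and 7.12, 6.83 and 6.84 in control cultures. Same-numbered arrays of Nrp2 differed by at most 0.04 between the viruses, while replicate 2 lay -0.30 and replicate 3 lay -0.27 from replicate 1.

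Slit2, a repellent of commissural axons, had 6.59, 6.51 and 6.41 log2 units in Cre and 6.80, 6.65 and 6.59 in control replicates 1, 2 and 3. The Cre array was lower in every same-numbered pair, by -0.21, -0.13 and -0.18, and the groups touched only where Cre replicate 1 met control replicate 3. The difference was -0.17 (SE 0.08, limma adjusted p = 0.934). With the replicate block its SE was 0.04 and its adjusted p 0.406, which does not pass either. In the authors' values Slit2 averaged 23.3 ± 4.16 in Cre and 32.3 ± 4.04 in control cultures (SD, n = 3 each). With the scanner's local background column in place of the blank spots its sign turned (0.12). At probe spots that column averaged more than the median spot, and more on every Cre array than on any control array. Under every other setting run Slit2 stayed negative, at -0.218 to -0.112 with 1 array left out. Slit1 averaged 5.91 in Cre and 5.95 in control cultures, and Slit3 averaged 6.35 in Cre and 6.34 in control cultures.

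Of the Robo receptors, Robo2 had the highest signal, at 6.18, 6.14 and 6.24 log2 units in Cre and 6.18, 6.36 and 6.22 in control replicates 1, 2 and 3. Apart from control replicate 2 the arrays lay within a narrow band, and the difference was -0.07 (SE 0.06, limma adjusted p = 0.999). Robo3, which lets commissural axons cross the midline, had 2 kept probes with differences of 0.04 (SE 0.03) for M400011115 and 0.03 (SE 0.03) for M300008095. Probe M400011115 had 5.74, 5.71 and 5.76 in Cre and 5.68, 5.71 and 5.70 in control cultures. Its groups did not overlap, by less than the last decimal printed, and only 2 Cre arrays and 1 control array were above background. Robo4, an endothelial receptor, read 1 to 3 in the authors' table and was above background on 1 Cre and 3 control arrays. Robo1 had an authors' value on 2 arrays only (1 in Cre replicate 1 and 1 in control replicate 2) and was not kept.

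Ntn4, a netrin of basement membranes, had the highest signal of the netrin probes. It had 7.74, 7.31 and 7.52 log2 units in Cre and 7.44, 7.18 and 7.38 in control replicates 1, 2 and 3. Replicate 2 was the lowest of both groups, and the Cre array was higher in every pair on this scale, by 0.30, 0.13 and 0.14, while the authors' values of pair 2 (55 in Cre and 64 in control) ran the other way. The difference was 0.19 (SE 0.13, limma adjusted p = 0.999; SE 0.05 and adjusted p = 0.456 with the replicate block), and without Cre replicate 1 it was 0.08. Ntn1, the netrin of commissural axon guidance, had an authors' value on 2 arrays only, 2 in each of Cre replicates 1 and 3, and fell short of the rule. Ntn3, Ntng1 and Ntng2 read 1 to 6 in the authors' table.

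Receptors of the netrins were read at different distances from background. Unc5b, a repulsive netrin receptor also found on vessels, had 8.05, 7.69 and 7.67 log2 units in Cre and 7.84, 8.0 and 7.14 in control replicates 1, 2 and 3. Control replicate 3 lay apart from the other arrays, the difference was 0.15 (SE 0.25, limma adjusted p = 0.999), and without that array it was -0.11. Unc5a had 5.83, 5.79 and 5.80 in Cre and 5.88, 5.88 and 5.91 in control cultures, so that every Cre array lay below every control array. Its difference of -0.08 (SE 0.03) did not pass (limma adjusted p = 0.886), and its authors' values were 4, 3 and 3 in Cre and 6, 6 and 6 in control cultures. Unc5c had 6.26, 6.15 and 6.32 in Cre and 6.30, 6.43 and 6.37 in control cultures, a difference of -0.12 (SE 0.06, limma adjusted p = 0.965). Dcc, the attractive netrin receptor, read 2 on all 3 Cre arrays and 2, 3 and 2 on the control arrays in the authors' table. Unc5d read 3 to 5 with 1 probe, and its other probe had an authors' value on 2 arrays (2 in Cre replicate 2 and 1 in control replicate 1) and was not kept.

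**Figure D2:**
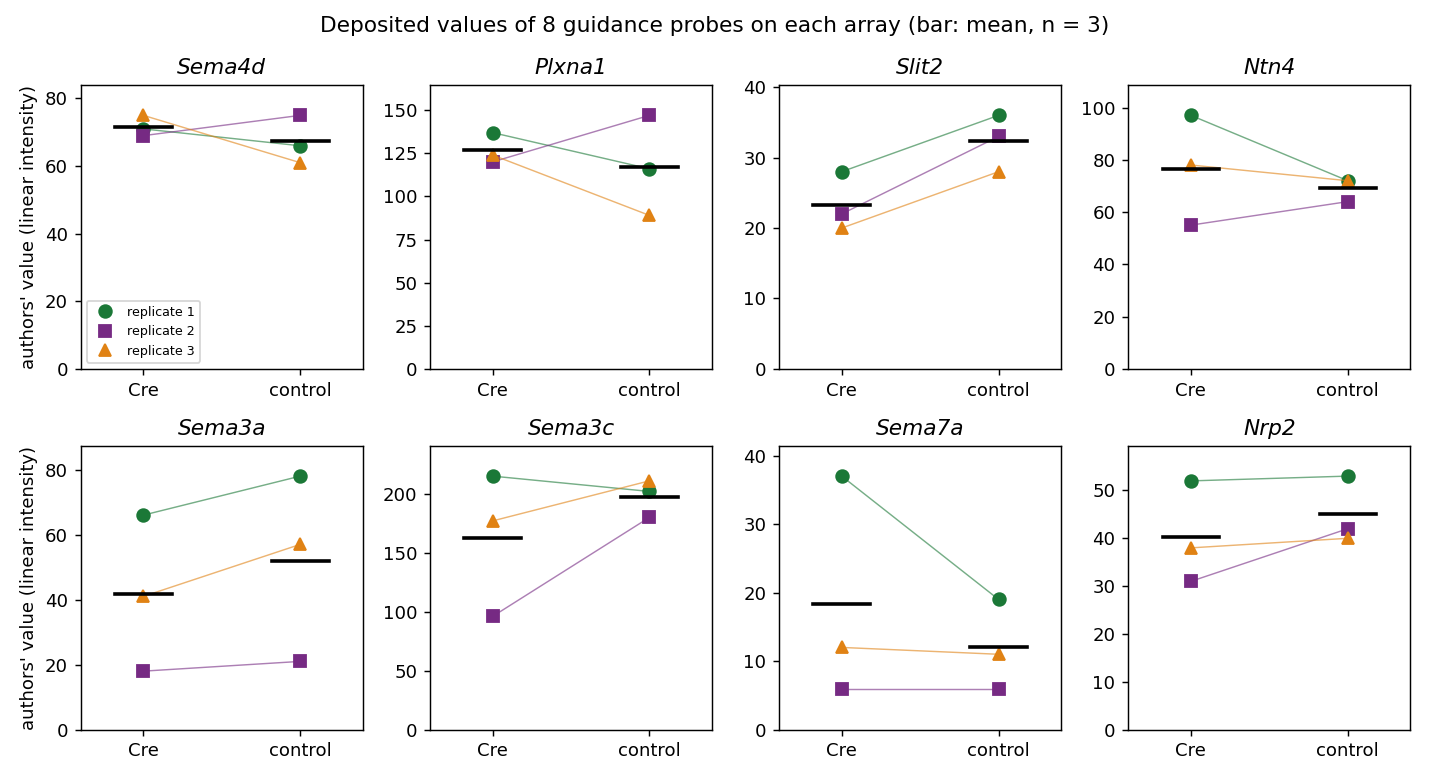
The authors' linear values (y axis, from 0) of 8 guidance probes on the 3 Cre and 3 control arrays; symbols and colours mark the replicate number, thin lines join same-numbered arrays and black bars are group means. Slit2 is lower in the Cre array of every pair, while Sema3a and Sema7a keep the order replicate 1, 3, 2 in both groups. The panel titled Plxna1 shows probe M400013283.

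The replicate numbers were compared by limma in the fit with both terms, a comparison chosen after the data were seen. At an unadjusted p under 0.05, 9 member probes differed between replicate numbers (18.4%), against 14.1% of all probes, and 0 passed the adjusted threshold. Of these 9, 4 were the class 3 semaphorins Sema3a, Sema3c, Sema3e and Sema3f, and the others were Sema7a, Nrp2, Ntn4, Slit2 and Plxna2 (M400013835). The widest ranges were 1.03 for Sema3a, 0.67 for Sema7a and 0.59 for Sema3c on the log2 scale. In Sema3a, Sema3c, Sema7a, Sema4a and Ntn4 the authors' value was lowest in replicate 2 of both groups, which makes 5 of 49 probes (10.2%), against 13.6% of all probes. On the log2 scale this did not hold for Sema4a, whose Cre replicate 2 was its highest Cre array (8.32).

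Markers of fibroblasts and meningeal cells followed the replicate number too. Their summed authors' value over 12 genes was 976, 227 and 659 in Cre replicates 1, 2 and 3, and 1302, 354 and 732 in control replicates 1, 2 and 3. Replicate 1 was the highest and replicate 2 the lowest of both groups, the order that Sema3a and Sema7a show. Endothelial and mural markers had the same order, at 117, 72 and 108 in Cre and 128, 85 and 124 in control cultures. Astrocyte markers were instead lowest in replicate 1 of both groups, at 6697, 7404 and 8517 in Cre and 5031, 8839 and 7770 in control cultures. By gene, 8 of the 12 fibroblast and meningeal markers were lowest in replicate 2 of both groups. Between replicate numbers, 8 of them reached an unadjusted p under 0.05 in limma. So did 4 of 12 astrocyte, 3 of 12 neuron, 3 of 9 endothelial and mural, 2 of 11 oligodendrocyte-lineage and 0 of 11 microglia markers. The share of all probes was 14.1%. Col3a1, a fibrillar collagen chain, had authors' values of 217, 18 and 112 in Cre and 346, 34 and 163 in control cultures. Between the viruses 9 of the 12 fibroblast and meningeal markers had a negative difference (median -0.08), and 0 of these 12 genes was listed at 0 on any array. The part of these cells in the replicate differences of the semaphorins was not tested.

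**Figure D3:**
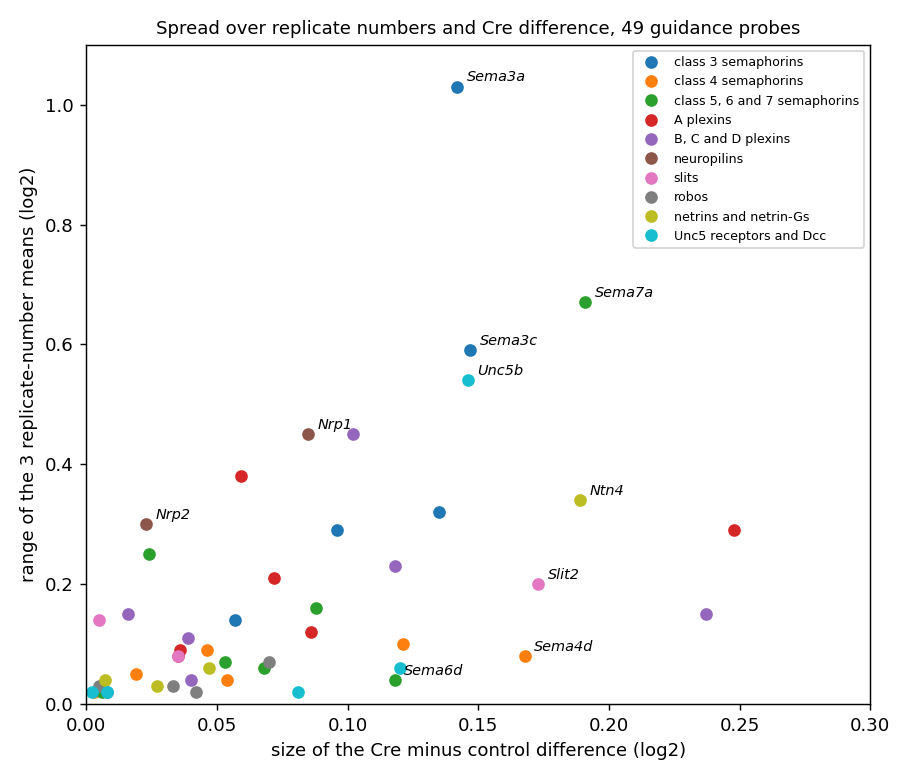
Each point is 1 of the 49 guidance probes, with the size of its Cre minus control difference (x axis, log2) and the range of its 3 replicate-number means (y axis, log2), coloured by role. The axes differ in kind, a range of 3 means against a difference of 2, so the plot does not weigh one against the other. Sema3a has the widest range, 1.03 at a difference of 0.14 in size.

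Among the probes with a mean of 7 or more log2 units over all arrays, a split chosen after the values were seen, 13 of 16 members were higher in Cre cultures with a median of 0.11. Of all probes in that range, 4182 of 8374 (49.9%) were higher. The pairs did not share the direction: 14 of the 16 were higher in pair 1, 6 in pair 2 and 15 in pair 3. In the authors' table these counts were 14, 0 and 14, and by its fit 7 of the 16 were higher. Without control replicate 3 the count was 8 of 16, with a median of -0.01. Of the members under 7 log2 units, 14 of 33 were higher.

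Partners and effectors of these receptors, a list of 87 genes, had 82 genes in the fit and a median difference of 0.01, with 46 above and 36 below 0. None passed over all probes, and 4 (4.88%) reached an unadjusted p under 0.05, 2 in each direction, against 5.61% of all probes. Lrrc4c, the partner of netrin-G1, had the smallest p, with authors' values of 29, 19 and 22 in Cre and 36, 42 and 34 in control cultures. The groups did not overlap, and the log2 difference was -0.29 (SE 0.06, limma adjusted p = 0.587). Nck1, an adaptor between guidance receptors and actin that reached it too, stood at -0.21 (SE 0.05). Srgap1, which also reached an unadjusted p under 0.05 and switches off GTPases downstream of Robo, stood at 0.12 (SE 0.04). The kinase Gsk3b, at -0.22 (SE 0.09), and the heparan sulfate proteoglycan Sdc1, at 0.46 (SE 0.20), did not reach it. The limma adjusted p of these 5 genes lay between 0.587 and 0.927.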

How the data were processed

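Amplified RNA of 6 samples was coupled to Cy5, per the labels' protocols. The scanner files, as deposited, hold a spot median and a local background intensity, not subtracted, per the file headers. The authors also deposited a table of linear intensity values with a median of 25 on every array. Among authors' values of 100 or more, the spot less the blank mean was 1.44 to 1.93 times the authors' value, as a median per array. How closely single probes followed that ratio was not computed, and dimmer values were not compared in this way. No source used here says how the authors' values were scaled.

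Spots were corrected by normexp against 2736 blank spots (limma 3.58.1 in R 4.3.3, nec, offset 50), log2 transformed and quantile normalised; 0 to 9 flagged probe spots per array were left out. Probes above the blank mean by 2 SD on at least 3 arrays were kept (20540), and Cre was compared with control by two-sided tests of limma (lmFit, then eBayes), with p-values adjusted over all probes after Benjamini and Hochberg. The number of arrays limits the precision. Of 23473 probes, 20690 had 1 gene symbol, 0 several and 2783 were unnamed; 0 symbols changed in the RefSeq update. Named genes are the brightest probe and the smallest p of 10 role groups, all probes of genes with several, and the 6 partners with the smallest p, of which 1 is not reported here; others are marked. Members, lists and rules were chosen with earlier results of these data known. The fit was tested on simulated data.

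The labels number replicates 1 to 3 in both groups. Arrays with one number deviated from their group means together (r = 0.498, 0.425 and 0.436), and on that basis the numbers count as pairs; no label states a shared culture or litter. Nor does any label say that replicates are separate cultures, so the spread behind each p-value may be technical.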

Additional observations from a re-analysis of the deposited data

How the results depend on the processing

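Under every alternative run, 0 of the guidance probes and 0 of all probes passed the adjusted threshold, the replicate block (0) included; the smallest adjusted p of all probes was 0.069, without control replicate 2. Blocks by scan or slide were not run, because the headers name no such batch. The median over the guidance probes was 0.008 and became 0.053 with plain subtraction of the blank mean and -0.042 in the authors' values, where the median of all probes was -0.074. The 3 guidance probes at an unadjusted p under 0.05 became 0 with median scaling, 1 among probes above background on all 6 arrays and 1 with a trended variance, and 0 to 4 with 1 array left out. The 4 partners became 2 with median scaling and 4 to 7 with 1 array left out. The medians with 1 array left out were -0.003 to 0.033, and Chd7 stood at -1.24 to -0.95. The Chd7 difference of -1.13 was -2.71 with plain subtraction and -0.52 with the local background column. Over all probes the 1153 at an unadjusted p under 0.05 became 613 with median scaling, 1918 with the replicate block and 2089 in the authors' values.

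Signs turned with the local background column for Sema4a (-0.018), Sema5a (-0.183), Nrp1 (-0.473), Slit2 (0.122), Unc5b (-0.127), Plxna1 M200001455 (0.298), Gsk3b (0.304), Sema3a (0.018) and Nrp2 (0.049). They turned in the authors' values for Sema4a (-0.021), Sema5a (-0.074), Plxnb2 M400014093 (-0.068), Nrp1 (-0.039), Plxna2 M200000853 (-0.023) and Sema3b (-0.063), and with median scaling for Sema5a (-0.005). With 1 array left out, the ranges that crossed 0 were -0.325 to 0.081 for Sema3c, -0.135 to 0.135 for Sema5a, -0.110 to 0.373 for Plxnb2 M400014093, -0.109 to 0.210 for Nrp1, -0.112 to 0.315 for Unc5b, -0.052 to 0.197 for Plxna2 M200000853, -0.207 to 0.064 for Plxna2 M400013835, -0.018 to 0.184 for Sema3b, -0.466 to 0.111 for Sema3a, -0.068 to 0.377 for Sema7a and -0.113 to 0.074 for Nrp2. The cause of these turns was not tested. At probe spots the local background column averaged 266.3, 322.1 and 266.7 on Cre arrays 1, 2 and 3. On control arrays 1, 2 and 3 it averaged 231.5, 194.5 and 178.8. The median probe spot read 88.79 to 106.3 over the 6 arrays, below this local background on every array. Among other differences that shrank by over 1.5 times were Plxna1 M400013283 (0.115), Plxnb2 M300010461 (0.14), and Plxnd1 (0.008) without control replicate 3, Ntn4 (0.08) and Sdc1 (0.255) without Cre replicate 1, Slit2 (-0.112) without control replicate 1, Unc5c (-0.075) without Cre replicate 2, and Sema4a (0.049), Gsk3b (-0.131), Robo2 (-0.016), Plxna1 M200001455 (-0.048) and Sema6a (-0.038) without control replicate 2. The replicate block changed no call at the adjusted threshold. Dim probes limit the rest: the offset compresses their differences.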
